A study of Homo sapiens with 40 samples.

Results

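The G2/M and mitosis genes are 44 genes whose products carry a cell from late G2 through chromosome segregation and cytokinesis, and their transcript levels were followed in WT and PARP1-KO HEK293A cells treated with topotecan (Tpc), OL9-119 or their combination. They are 44 of the 28922 genes tested, out of 58395 genes listed, and all 44 passed the filter of 10 counts summed over all libraries. The genes were listed by name from knowledge of the cell cycle, but PLK1, KIF20A, PSRC1 and PIF1 were marked in the list as being lower after Tpc or the combination in WT cells. For these 4 noted genes the values in WT cells treated with Tpc or the combination are therefore a description without a test, and counts of genes called in comparisons that use those libraries are over the other 40 genes.

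RNA sequencing was done on 40 libraries, 4 for each of 10 groups. HEK293A is an adherent human embryonic kidney line, and PARP1-KO is 1 clone of it that carries a homozygous CRISPR/Cas9 deletion in PARP1, the enzyme that marks DNA breaks with poly(ADP-ribose). Cells of either genotype were left untreated or received 0.1% DMSO (the solvent), Tpc (a poison that traps topoisomerase 1 on DNA), OL9-119 (an inhibitor of TDP1, which removes trapped topoisomerase 1) at 5 μM, or Tpc with OL9-119, for 5 to 5.5 h. Tpc was given at 100 nM to WT and at 50 nM to PARP1-KO cells, so genotype and Tpc dose cannot be told apart where drug responses are set side by side. Every group that received a drug also held 0.1% DMSO. Since a single clone stands for the knockout, a difference between clones and an effect of PARP1 loss cannot be told apart. The labels call the replicates biological and the methods call them technical, so p-values measure the spread between these samples.

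Library totals ran from 3455043 to 20379777 counts with a median of 10656829. The deleted gene checked the genotype labels, with PARP1 at 30.4 to 46.6 CPM (counts scaled to a common library size) in the 20 PARP1-KO libraries and 737 to 887 CPM in the 20 WT libraries. The markers VIM (471 to 970 CPM), NEFL (228 to 364 CPM) and KRT18 (189 to 514 CPM) were expressed in all 40 libraries, while the leukocyte gene PTPRC was at 0 counts in 31 libraries and the erythroid gene HBB in 38. The other HEK293 markers looked up were lower, NEFM at 3.38 to 49.6 CPM and PAX2 at 0.0979 to 12.1 CPM. Genes of further cell types were low but often detected. ALB (hepatocytes) was at 0 counts in 17 libraries, CD14 (monocytes) in 6 and PECAM1 (endothelium) in 4. Their highest values were 1.2, 4.73 and 2.74 CPM. Mitochondrial transcripts made up 4.73 to 8.25% of counts in WT and 3.73 to 4.97% in PARP1-KO libraries, which moved with genotype. Among WT groups the share was 6.38 to 7.54% untreated, 4.73 to 5.95% with OL9-119 and 5.07 to 6.52% with the combination, so it also moved with OL9-119. Its part in the results was not tested.

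A pair of PARP1-KO libraries stood apart from their groups over these genes. The library labelled PARP1-KO DMSO replicate 3 was the lowest of 4 for 23 of 44 genes and the highest for 15, with a mean of 6.28 on the log2(CPM + 0.5) scale over the 44 genes against 6.41 to 6.47 in the other libraries of its group. The library labelled PARP1-KO Tpc + OL9-119 replicate 3 was the highest of 4 for 38 of 44 genes and the lowest for 2, with a mean of 6.56 against 6.17 to 6.26. Counts of genes called that use these libraries are given with and without the pair, a choice made after seeing the data, and the cause was not tested.

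Transcripts of this programme build up through S and G2, peak in mitosis and are low in G1. CDK1 with cyclin B drives entry into mitosis, PLK1 and the Aurora kinases build the spindle and centrosomes, and the anaphase-promoting complex with CDC20 destroys cyclin B and securin once the spindle checkpoint is satisfied. Many promoters of the programme carry the cell cycle genes homology region (CHR) and CCAAT boxes, through which the DREAM complex represses them in G1 and MYBL2, FOXM1 and NF-Y turn them on in G2. In bulk RNA, fewer cells in G2/M and less RNA of these genes per cell cannot be told apart.

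Promoter sequences were available for 38 of the 44 genes (RefSeq, GRCh38.p14, 250 bases before to 50 after the start). The letters TTTGAA or TTCGAA on either strand, which are the core of the CHR, stood in 24 of these 38 promoters (63.2%) and in 16.6% of all 27305 promoters. CCAAT on either strand stood in 30 (78.95%) against 35.7%, and CHR letters together with at least 2 CCAAT in 13 (34.2%) against 1.98%. The E2F letters TTTCCCGC or TTTGGCGC were in 2 promoters (5.26%) against 2.31%. A match is a run of letters and not a bound site. The 100 bases before the start are printed for the 4 noted genes and for CCNB1 and CDC20, on whose values much of the text below rests, 5′ to 3′ on the gene's strand, with CHR letters and CCAAT (or its reverse complement ATTGG) in capitals. They lie at chr16:23678789-23678888 (+) for PLK1, chr5:138179012-138179111 (+) for KIF20A, chr1:109283146-109283245 (-) for PSRC1, chr15:64825648-64825747 (-) for PIF1, chr5:69167050-69167149 (+) for CCNB1 and chr1:43358881-43358980 (+) for CDC20.
PLK1: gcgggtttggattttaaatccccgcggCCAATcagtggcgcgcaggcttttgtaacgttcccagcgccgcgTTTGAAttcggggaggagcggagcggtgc
KIF20A: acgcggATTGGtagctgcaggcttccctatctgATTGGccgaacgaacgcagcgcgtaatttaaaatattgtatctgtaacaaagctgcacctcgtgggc
PSRC1: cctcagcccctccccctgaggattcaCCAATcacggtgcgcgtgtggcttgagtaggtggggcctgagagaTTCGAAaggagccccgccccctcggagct
PIF1: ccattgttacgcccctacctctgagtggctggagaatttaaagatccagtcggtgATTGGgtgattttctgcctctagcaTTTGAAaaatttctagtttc
CCNB1: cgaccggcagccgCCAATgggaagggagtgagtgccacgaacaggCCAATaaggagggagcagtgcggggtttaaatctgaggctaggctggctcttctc
CDC20: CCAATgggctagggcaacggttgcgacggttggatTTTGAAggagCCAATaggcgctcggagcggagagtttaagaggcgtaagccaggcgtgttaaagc

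Untreated WT cells expressed most of the 44 genes well. Per kb of transcript, levels ran from 0.336 CPM for PRC1 and 4.37 CPM for PIF1 to 273 CPM for PTTG1, which encodes securin. PRC1, a bundler of midzone microtubules, had only 0 to 46 counts per library. Of its exon bases 57.6% lie under another gene on the same strand and 34.3% under its antisense gene, so its counts are uncertain and its changes are not read. With DMSO alone 0 of 44 genes passed the test in either genotype (edgeR quasi-likelihood test, adjusted p below 0.01), and neither did any other gene, with 0% of all genes called in either direction. At an unadjusted p below 0.05, 0 genes were lower and 2 higher (TTK and SGO2) with DMSO in WT cells (5.97% and 4.8% of all genes), and 1 was lower (CCNB1) and 0 higher in PARP1-KO cells (1.05% and 0.813% of all genes). DESeq2 also called 0 in both genotypes. Without the pair of libraries 0 genes were called with DMSO in PARP1-KO cells, and CCNB1 (-0.15, unadjusted p = 0.199) no longer passed at that level, while BORA was the 1 gene that did (-0.53, unadjusted p = 0.0315, adjusted p = 1).

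The noted genes were marked as lower in WT cells after Tpc or the combination, and which of these held for each gene is not stated. PLK1 was at 122.8, 143.8, 103.8 and 142.3 CPM in the 4 untreated libraries and at 43.1, 24.9, 39.6 and 41.8 CPM with Tpc. KIF20A, a kinesin of the cytokinetic midzone, was at 111.7, 134.3, 105.3 and 126.9 CPM and at 45.4, 30, 45 and 40.5 CPM with Tpc. PSRC1, a microtubule-binding protein of the spindle, was at 52.1, 41, 22.8 and 35.8 CPM and at 13.2, 16.3, 12.8 and 11.7 CPM with Tpc. In all 3 genes every Tpc library lay below every untreated one. PIF1, a DNA helicase, was at 16.9, 9.81, 12 and 8.37 CPM untreated and at 3.85, 2.58, 1.86 and 1.55 CPM with Tpc, again without overlap. These are log2 fold changes of -1.78 ± 0.17 (SE) for PLK1, -1.57 ± 0.15 for KIF20A, -1.49 ± 0.26 for PSRC1 and -2.23 ± 0.53 for PIF1.

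Of the 40 genes not noted, 21 were called lower after Tpc in WT cells and 0 higher, with 0.304% of all genes called lower and 0.553% higher. Among the 12161 genes with a mean of at least 50 counts 0.724% were called lower and 1.27% higher. The groups did not overlap for 28 of the 40, all lower with Tpc, beside 2.44% of all genes. Over the 40 genes the median log2 fold change was -0.63 against 0.00 for all genes, and all 44 fold changes were negative. The list was drawn up with values of this comparison known, so these counts describe the set. Noted genes lie at the low end of the range, as their selection implies, and CENPA, CDC20 and AURKA come next.

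Among the genes of mitotic entry beside PLK1, 6 of 10 were called lower. Cyclin B1 (CCNB1) went from 374.9, 265.03, 281.7 and 271.7 CPM to 128.01, 145.2, 124.6 and 129.97 CPM, a log2 fold change of -1.18 ± 0.12 (adjusted p = 2.29e-10). AURKA, the kinase that activates PLK1 at centrosomes, went from 144.8, 130.9, 134.7 and 123.8 CPM to 48.1, 56.3, 50.7 and 58.5 CPM (-1.32 ± 0.14). Every treated library of these 2 genes was at or below 145.2 CPM and below each of its untreated libraries. CCNF, an F-box protein of G2, CCNA2, CCNB2 and the microtubule-binding GTSE1 were called lower too (log2 fold changes from -1.04 to -0.60), GTSE1 from 89.9, 100.9, 69.8 and 95.8 CPM to 56.4, 50.3, 63.9 and 65.5 CPM. CDK1 itself, the kinase partner of the cyclins, moved less, from 310.2, 289.7, 330.2 and 317.7 CPM to 225.7, 228.4, 233.2 and 232.6 CPM (-0.44 ± 0.11), and missed the threshold although the groups did not overlap (adjusted p = 0.0143). The phosphatases CDC25B and CDC25C, which activate CDK1, had adjusted p of 0.04 and 0.0273.

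Of the spindle checkpoint and anaphase genes, 4 of 8 were called lower. CDC20, the activator of the anaphase-promoting complex, went from 161.1, 163.2, 157.9 and 136.5 CPM to 70.7, 57.2, 59.7 and 55.1 CPM (-1.35 ± 0.14, adjusted p = 1.93e-10). UBE2C, its ubiquitin-conjugating enzyme, was at 43.7% of the untreated level, the checkpoint kinase BUB1 at 49.6% and PTTG1 at 60.9%. The checkpoint kinases TTK (71.1%) and BUB1B (69.3%), the centrosome kinase NEK2 (76.3%) and the cohesin protector SGO2 (64.9%) were not called.

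At the centromere, CENPA (the histone H3 variant that marks it), CENPE (its plus-end kinesin) and BIRC5 (survivin, of the chromosomal passenger complex) were called lower, 3 of 6 genes. CENPA went from 50.7, 28.2, 41.9 and 37.2 CPM to 15.3, 14.2, 16.1 and 15.9 CPM, and CENPE from 153.6, 135.5, 163.99 and 197.5 CPM to 68.2, 77, 88 and 85.4 CPM. AURKB, the kinase of the passenger complex, was not called (138.8, 109.6, 89 and 98.9 CPM against 96.1, 105.5, 71.9 and 81.9 CPM, overlapping). The CENPA chaperone HJURP stood at 83.7% of its untreated level (adjusted p = 0.312).

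Of the mitotic kinesins beside KIF20A 2 of 6 were called lower, the motors KIF4A and KIF2C, which shape the midzone and depolymerise microtubules. KIF4A went from 161.4, 164.4, 132.7 and 169.7 CPM to 95.7, 110.5, 93 and 103.7 CPM, and KIF2C from 168.3, 183.8, 170.4 and 170.5 CPM to 119.2, 124.3, 118.4 and 102.2 CPM, both without overlap. KIF11, the motor that separates spindle poles, was at 84.7% (adjusted p = 0.321). Of the spindle and cytokinesis genes beside PSRC1 5 of 9 were called lower, namely HMMR, DLGAP5, FAM83D, TPX2 and TACC3, and their log2 fold changes ran from -1.24 to -0.67. The spindle assembly factor TPX2 went from 527.9, 478.4, 471.9 and 460.2 CPM to 277.97, 266.4, 292.1 and 276.3 CPM, and TACC3, its partner in AURKA signalling at the spindle, from 169.9, 187.6, 123.2 and 151.00 CPM to 93, 115.001, 95.5 and 93.9 CPM. CKAP2, a microtubule protein of the spindle poles, did not pass the test, at 250.4, 268.4, 280.3 and 306.9 CPM untreated and 249.01, 275.3, 287.9 and 275.03 CPM with Tpc (-0.02 ± 0.12, adjusted p = 1). The endoplasmic reticulum shaping gene ARL6IP1 was called lower as well (-0.95 ± 0.14), and 15.4% of its exon bases lie under another gene on the same strand.

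**Figure D1:**
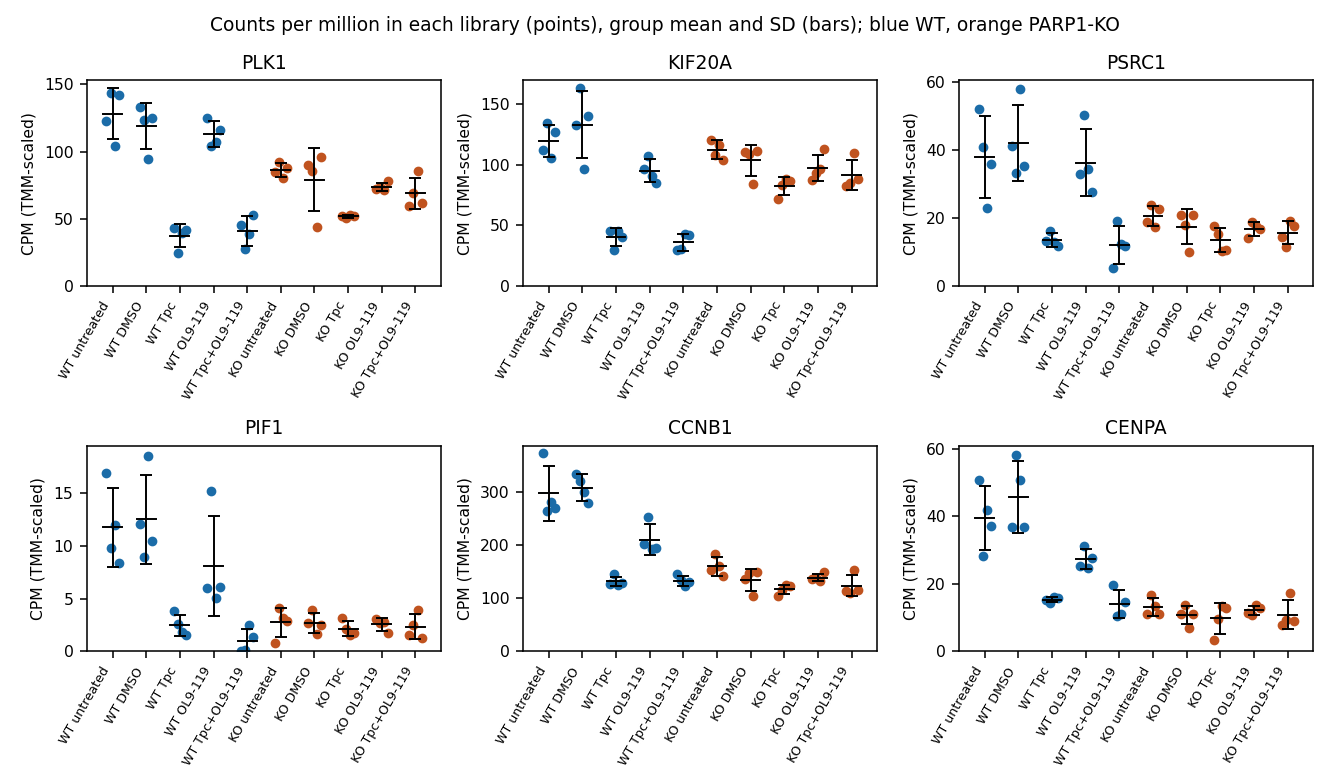
CPM (vertical axes, linear from 0) of PLK1, KIF20A, PSRC1, PIF1, CCNB1 and CENPA in every library, 1 point per library, by genotype (blue WT, orange PARP1-KO, written KO) and treatment, with bars at the group mean and SD. In WT cells the Tpc and combination points of CCNB1 lie at 122.9 to 146.3 CPM, below all untreated points (265.03 to 374.9 CPM), while the PARP1-KO points lie between 104.7 and 183.7 CPM over all treatments.

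The combination in WT cells left 26 of the 40 genes not noted called lower and 0 higher, with 2% of all genes called lower and 2.07% higher, and 30 of the 40 without overlap beside 4.01% of all genes. Their median log2 fold change was -0.67, and 39 of 40 were negative. Among genes with a mean of at least 50 counts 4.61% were called lower and 4.82% higher. PLK1 was at 45.7, 27.2, 38.5 and 53 CPM, KIF20A at 29.2, 30.3, 42.6 and 41.7 CPM, and PSRC1 at 5.21, 19.1, 12.3 and 11.8 CPM. PIF1 was at 0.0801, 0.108, 2.49 and 1.37 CPM, which are 1, 1, 20 and 5 counts, so that its log2 fold change of -3.65 ± 0.60 rests on few reads. All 4 genes stayed below their untreated libraries.

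By role and without the noted genes, those called lower were 7 of 10 entry genes, 7 of 8 checkpoint and anaphase genes, 4 of 6 centromere genes, 2 of 6 kinesins, 5 of 9 spindle and cytokinesis genes and ARL6IP1. AURKA was at 66.5, 41.9, 42.8 and 38.7 CPM (-1.48 ± 0.15, adjusted p = 2.37e-11) and UBE2C at 39.1% of untreated. Among the least lowered genes called were AURKB, at 80.8, 62.5, 77.7 and 76.1 CPM (68.0% of untreated, adjusted p = 0.0048), and CDC25B, at 108.9, 222.2, 177.7 and 143.6 CPM against 223.1, 245.9, 222.7 and 222.3 CPM (71.4%, adjusted p = 0.00824), and KIF4A, at 116.7, 109.99, 111.1 and 102.7 CPM (70.2%, adjusted p = 0.000653). The highest combination library of CDC25B came within 1 CPM of its lowest untreated library. TPX2 spread widely, at 441.8, 283.5, 281.2 and 284.5 CPM. CKAP2 was above its untreated level (0.15 ± 0.12, adjusted p = 0.478).

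Adding OL9-119 to Tpc moved 0 of the 40 genes not noted past the threshold in WT cells, with 0.0622% of all genes called lower and 0.118% higher. At an unadjusted p below 0.05, 1 of the 40 was lower (PTTG1) and 1 was higher (HMMR, which links spindle microtubules to centrosomes, 0.37 ± 0.16, adjusted p = 0.383), beside 6.04% and 4.72% of all genes. DESeq2 also called 0. The combination was also set against the added effects of Tpc and OL9-119, each taken against DMSO, and a departure from additivity was called for 0 of the 40 genes by edgeR and by DESeq2 (0.00346% of all genes called lower and 0% higher). At an unadjusted p below 0.05, 14 genes were less lowered than the sum and 0 more, beside 3.5% and 6.9% of all genes, and 33 of 40 departures were positive. ARL6IP1 (0.67 ± 0.20, adjusted p = 0.248) and CCNB1 (0.57 ± 0.17, adjusted p = 0.254) had the smallest p.

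OL9-119 alone in WT cells left 3 of 44 genes called lower and 0 higher, with 0.833% of all genes called lower and 0.449% higher. PTTG1 went from 247.1, 166.8, 219.6 and 148.4 CPM to 108.8, 131.6, 109.7 and 107.6 CPM (-0.77 ± 0.14, adjusted p = 0.000229). BIRC5 went from 420.7, 307.2, 431.4 and 289.5 CPM to 226.6, 263.6, 208.6 and 222.4 CPM (-0.65 ± 0.13, adjusted p = 0.000693). CCNB1 went from 374.9, 265.03, 281.7 and 271.7 CPM to 201.8, 253.6, 192.97 and 194.2 CPM (-0.50 ± 0.12, adjusted p = 0.00863). None of the 3 overlapped its untreated libraries, and 11 of 44 genes did not, all lower, beside 2.87% of all genes. The count fell to 1 without untreated WT replicate 1 or 3 and was 5 without replicate 4. None of the noted genes passed the test with OL9-119, with PLK1 at 125.1, 104.1, 106.9 and 116.3 CPM, KIF20A at 96.6, 107.2, 90.9 and 85.1 CPM and PSRC1 at 32.9, 50.3, 34.4 and 27.7 CPM. Adjusted p were 0.619 for PLK1, 0.218 for KIF20A and 0.996 for PSRC1. PIF1 was at 6.06, 15.2, 5.09 and 6.15 CPM (adjusted p = 0.623). The median over the 44 genes was -0.15, and 40 fold changes were negative.

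**Figure D2:**
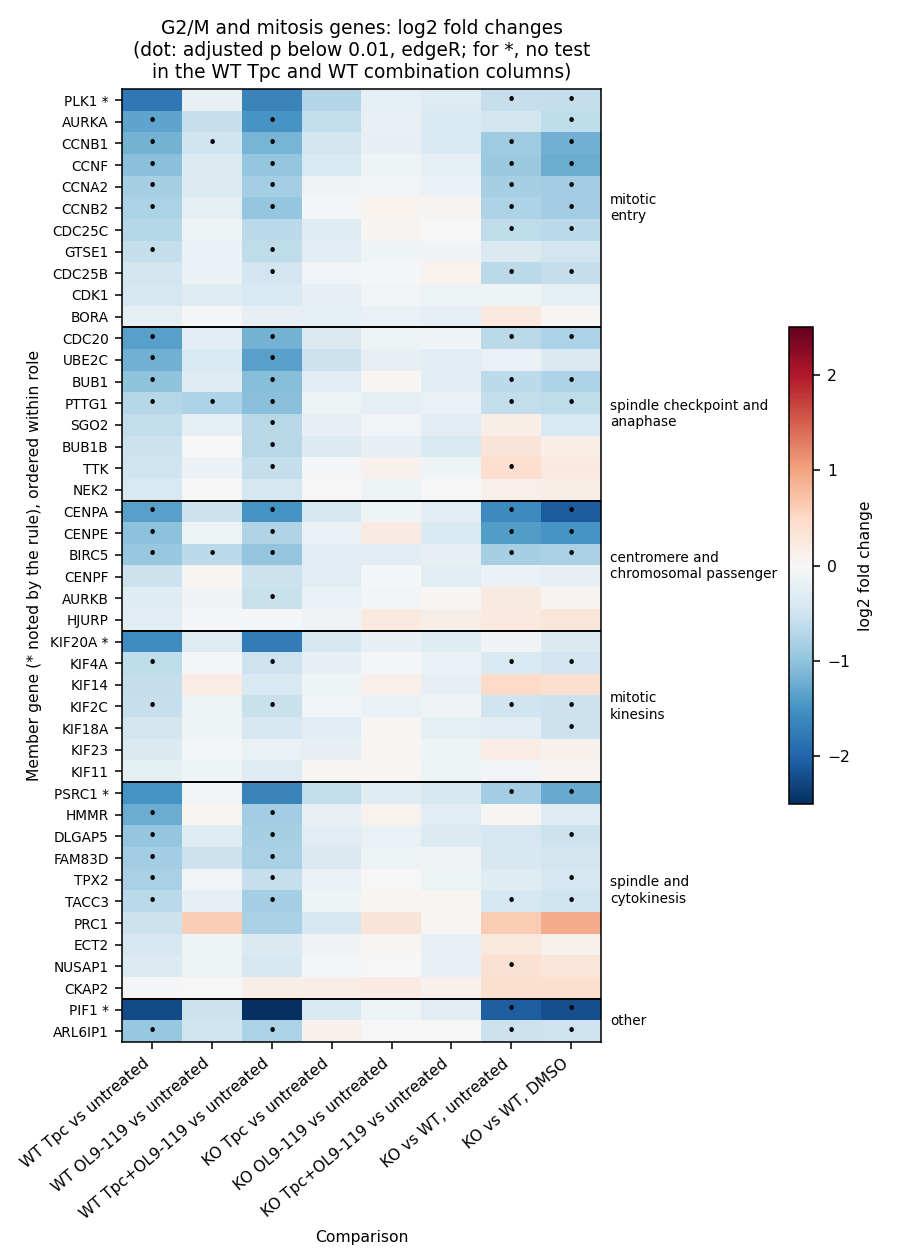
Log2 fold changes of the 44 genes, in rows grouped by role, for the main comparisons in columns, with dots at genes called at an adjusted p below 0.01 (no dot is drawn for the noted genes where no test is given). The WT Tpc and combination columns are blue nearly throughout, and the 3 PARP1-KO drug columns carry no dot. The PARP1-KO against WT columns mix lower and higher genes, with 30 of 44 fold changes negative untreated and 31 with DMSO. Dots of the noted genes in those columns are a description.

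In PARP1-KO cells Tpc at 50 nM brought 0 of 44 genes past the threshold, while 0.0138% of all genes were called lower and 0% higher. The direction was nevertheless mostly the same, since 41 of 44 fold changes were negative, with a median of -0.20. At an unadjusted p below 0.05, 14 genes were lower and 0 higher, with 3.23% of all genes lower and 2.7% higher at that level, and DESeq2 also called 0. The groups did not overlap for 7 genes, all lower (PLK1, AURKA, CCNB1, KIF20A, CCNF, BUB1B and BUB1), beside 2.7% of all genes. PLK1 was at 84.5, 92.5, 80.2 and 88.1 CPM untreated and at 51.8, 50.3, 52.8 and 52.2 CPM with Tpc, or 59.9% of the untreated level (-0.74 ± 0.17, adjusted p = 0.0817). AURKA was at 98, 102.6, 94 and 96.4 CPM and at 58.2, 62.3, 74.6 and 60.8 CPM (-0.61 ± 0.14, adjusted p = 0.0964). CCNB1 was at 154.3, 183.7, 161.5 and 141.8 CPM and at 104.7, 116.4, 124.5 and 123.1 CPM (-0.45 ± 0.12, adjusted p = 0.281). KIF20A was at 120.6, 107.9, 116.2 and 103.4 CPM and at 71.2, 83.2, 87.9 and 86.4 CPM (-0.45 ± 0.14, adjusted p = 0.591). In these 4 genes every Tpc library lay below every untreated one, by amounts that did not pass a test across all genes. PSRC1 was at 18.8, 23.7, 17.4 and 22.6 CPM untreated and at 17.6, 15.3, 10.2 and 10.7 CPM with Tpc, overlapping, and PIF1 at 0.784, 4.07, 3.21 and 2.91 CPM and at 3.18, 2.09, 1.58 and 1.76 CPM, which lie as low as the Tpc-treated WT libraries. With only the 8 libraries compared in the fit 5 genes were called lower, and with only the 20 PARP1-KO libraries 3 were. The share of all genes called in those fits is not given, so these counts have no background to be read against.

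Over the 44 genes, the log2 fold changes of Tpc in WT and PARP1-KO cells, which share no library, had a Pearson's r of 0.69 and a Spearman's rho of 0.65 (0.61 and 0.55 over the 40 genes not noted). Over the 12161 genes with a mean of at least 50 counts these were 0.36 and 0.37. The members share libraries on each axis and are not independent replicates, so no test is given.

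**Figure D3:**
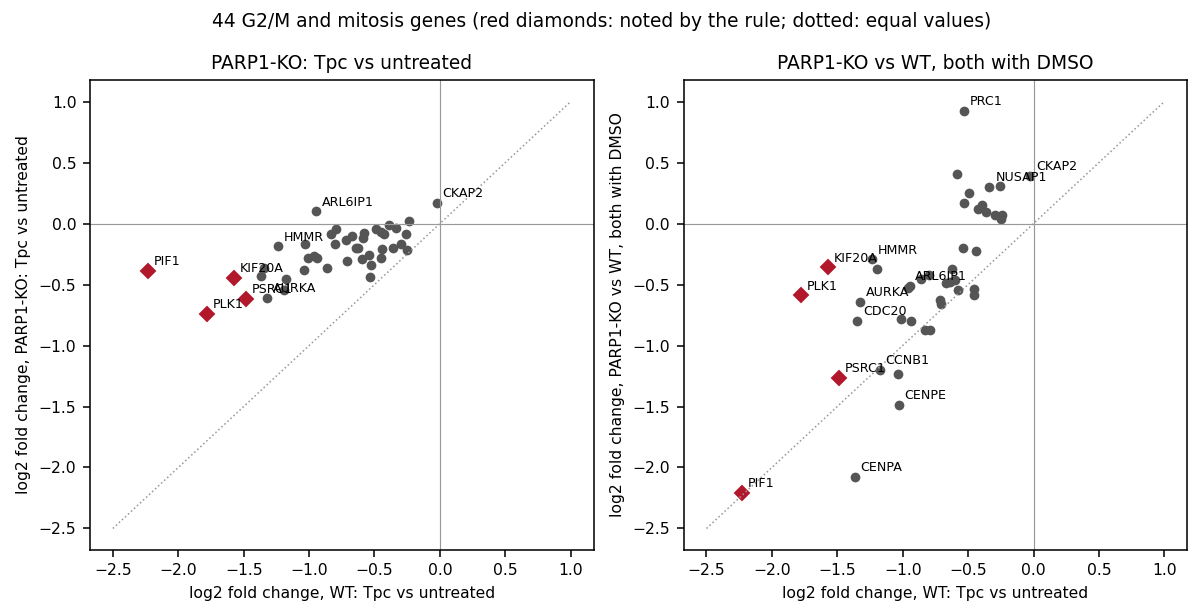
Log2 fold change of each of the 44 genes (points, noted genes as red diamonds, a dotted line at equal values) after Tpc in PARP1-KO cells, and between PARP1-KO and WT cells with DMSO, against its log2 fold change after Tpc in WT cells. All 44 points lie left of 0 on the WT Tpc axis and 41 lie below 0 for Tpc in PARP1-KO cells, at smaller sizes than in WT cells for 43 of 44, all but CKAP2.

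OL9-119 and the combination also called 0 of 44 genes in PARP1-KO cells (0.00346% of all genes lower and 0% higher with OL9-119, and 0% either way with the combination). With OL9-119, at an unadjusted p below 0.05, 1 gene was lower (BIRC5, at 194.8, 231.3, 202.2 and 184.2 CPM untreated and 153.6, 191.3, 161.8 and 171.4 CPM treated, -0.26 ± 0.13, adjusted p = 1) and 1 higher (HJURP), beside 1.83% and 1.39% of all genes. With the combination 7 genes were lower and 0 higher at that level, beside 2.47% and 1.82% of all genes, and 2 did not overlap, beside 1.75%. DESeq2 also called 0 with either treatment. PLK1 was at 71.9, 73.5, 71.4 and 78.1 CPM with OL9-119 and at 59.8, 68.8, 85.4 and 61.7 CPM with the combination, and KIF20A at 87.2, 92.7, 96.4 and 112.4 CPM and at 82.2, 85, 109.2 and 87.8 CPM. The highest combination value of both genes is that of replicate 3. CCNB1 with the combination was at 113.8, 111.1, 153.5 and 116.7 CPM, where 153.5 CPM belongs to the replicate 3 that stood apart. Without the pair of libraries 0 genes were called, 18 were lower at an unadjusted p below 0.05 (2.92% of all genes), 19 did not overlap (5.73%), and the median moved from -0.17 to -0.27. CCNB1 then stood at -0.50 (adjusted p = 0.0759) and AURKA at -0.59 (adjusted p = 0.0661). Adding OL9-119 to Tpc called 0 of 44 genes in PARP1-KO cells, with or without the pair, and 0% of all genes with all libraries. At an unadjusted p below 0.05, 0 were lower and 1 higher with all libraries, beside 2.03% and 2.07% of all genes, and DESeq2 called 0. Without the pair 2 were lower at that level (CENPE and NUSAP1) and 1 higher (HJURP), beside 1.52% and 2.43% of all genes.

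Responses were then compared between genotypes, which for Tpc are responses to 50 and 100 nM. The Tpc response was less negative in PARP1-KO cells for all 44 genes. Of the 40 genes not noted the difference was called for 3, with 0.0173% of all genes called in that direction and 0.083% in the other, and they were CDC20 (0.98 ± 0.19, adjusted p = 0.00515), ARL6IP1 (1.05 ± 0.20, adjusted p = 0.0025) and HMMR (1.05 ± 0.22, adjusted p = 0.00859). CDC20 went from 87.4, 107.4, 95.2 and 96.4 CPM to 61, 85.7, 65 and 88.2 CPM with Tpc in PARP1-KO cells. HMMR was at 102.2, 105.9, 107.2 and 109.5 CPM in untreated WT cells and at 48.6, 44.3, 42.9 and 44.1 CPM with Tpc, whereas in PARP1-KO cells it was at 130.01, 108.9, 99.2 and 96.2 CPM and at 111.2, 80.2, 100.3 and 89.3 CPM. ARL6IP1 was at 210.5, 203.9, 198.6 and 198.5 CPM and at 234.1, 180.1, 242.7 and 212.4 CPM in PARP1-KO cells. The count of 3 depended on the fit. It was 6 with DMSO as comparator, with length and GC offsets and with DESeq2. Leaving out any 1 of the 16 libraries lowered it to between 0 and 2. It was 0 without untreated WT replicate 3 or Tpc-treated WT replicate 3 or 4. It was 2 without untreated WT replicate 4, untreated PARP1-KO replicate 1 or 2 or Tpc-treated PARP1-KO replicate 2, and 1 without any other.

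For the combination the difference was called for 6 of the 40 genes, with 0.0692% of all genes called in that direction and 0.201% in the other. These were CCNB1 (0.79 ± 0.17, adjusted p = 0.00967), TACC3 (0.89 ± 0.18, adjusted p = 0.00468), CCNB2 (1.03 ± 0.21, adjusted p = 0.00477), CDC20 (1.08 ± 0.19, adjusted p = 0.000543), UBE2C (1.09 ± 0.23, adjusted p = 0.00598) and AURKA (1.11 ± 0.20, adjusted p = 0.000645). Without the pair of libraries that stood apart 2 remained, CDC20 (1.00, adjusted p = 0.00163) and AURKA (0.90, adjusted p = 0.00597), with 0.0484% of all genes called. The count of 6 became 10 with DMSO as comparator, 12 with length and GC offsets and 11 with DESeq2. It was 3 without untreated WT replicate 1, 2 without untreated PARP1-KO replicate 1, PARP1-KO combination replicate 3 or WT combination replicate 2 or 4, and 4 to 8 without any other library. Of the OL9-119 response 0 of 44 differences were called (0.0138% of all genes higher and 0.0519% lower), and 0 by DESeq2. At an unadjusted p below 0.05, 3 were higher and 0 lower, beside 3.05% and 3.75% of all genes, and PTTG1 had the smallest unadjusted p (0.54 ± 0.20, adjusted p = 0.636).

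Without any drug, many of these genes were already lower in PARP1-KO than in WT cells. With DMSO, in a comparison that shares no library with Tpc against untreated cells, 20 of the 40 genes not noted were called lower. Of them 0 were called higher, beside 5.75% of all genes called lower and 6.67% higher. With the noted genes included, 23 of 44 were called lower and 0 higher. The comparator against which those 4 were first seen low is not stated and could have been DMSO. Their values in this comparison are therefore a description, and 20 of 40 is the count to read. Among the 12161 genes with a mean of at least 50 counts 13.05% were called lower. The median over the 44 genes was -0.47 (-0.46 without the noted genes), and 31 of 44 fold changes were negative. It was 0.19 for all genes and 0.02 for the genes with a mean of at least 50 counts. CENPA stood at 37, 58.2, 50.9 and 36.8 CPM in WT and at 11.2, 13.7, 7.05 and 11.2 CPM in PARP1-KO cells (-2.08 ± 0.27, adjusted p = 1.27e-08). CENPE stood at 122.7, 214.4, 180.6 and 222.9 CPM and at 65.2, 59.2, 78.3 and 61.9 CPM (-1.48 ± 0.17, adjusted p = 3.92e-10). PIF1, a noted gene, stood at 12.1, 8.97, 18.6 and 10.5 CPM and at 2.67, 3.92, 1.66 and 2.48 CPM (-2.21 ± 0.53, given without a test). In all 3 genes the highest PARP1-KO library lay below the lowest WT library, as for 23 of the 44 genes (7.76% of all genes), and for 24 without the pair of libraries (8.93%).

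CCNB1 was at 335.8, 321.6, 300.8 and 279.5 CPM in WT and at 136.1, 147.99, 104.7 and 149.7 CPM in PARP1-KO cells with DMSO (-1.20 ± 0.12, adjusted p = 1.8e-11). CCNF was at 42.6% of the WT level, CCNA2 at 54.5%, CCNB2 at 54.6% and CDC20 at 57.5%, and all 4 were called. Smaller differences were called for KIF4A (178.02, 153.8, 154.1 and 163.9 CPM against 116.9, 110.8, 109.2 and 128.3 CPM, 71.6%), TACC3 (190.2, 141.3, 218.98 and 160.9 CPM against 131.9, 133.9, 98.2 and 142.5 CPM, 71.2%, overlapping) and TPX2 (490.4, 602.2, 507.4 and 480.6 CPM against 397.5, 359.5, 375.3 and 422.1 CPM, 74.7%). PLK1 was at 133.2, 123.2, 94.6 and 124.9 CPM and at 90.4, 85.9, 44.1 and 95.9 CPM, overlapping, with the lowest value in the replicate 3 that stood apart (-0.59 ± 0.17, adjusted p = 0.00689). KIF20A was at 132.5, 162.7, 96.1 and 140.1 CPM and at 109.9, 108.99, 84.3 and 110.7 CPM (adjusted p = 0.064). By role 8 of 11 entry genes were lower, 3 of 8 checkpoint and anaphase genes, 3 of 6 centromere genes, 3 of 7 kinesins, 4 of 10 spindle and cytokinesis genes and both others. Without the pair of libraries 18 genes were called lower (4.34% of all genes), and CDC25C, KIF18A, PLK1, TACC3 and TPX2 were no longer among them.

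Untreated cells gave 19 genes lower (16 of 40 without the noted genes) and 2 higher in PARP1-KO, with 5.74% of all genes called lower and 5.97% higher. The groups did not overlap for 20 genes that were lower and 3 that were higher, beside 8.37% and 11.3% of all genes. CENPE was at 153.6, 135.5, 163.99 and 197.5 CPM in WT and at 65.9, 55.2, 65.2 and 60.4 CPM in PARP1-KO cells (-1.40 ± 0.17, adjusted p = 2.4e-09). The genes called higher were NUSAP1, a spindle microtubule bundler, at 332.03, 343.98, 374.9 and 332.7 CPM against 493.4, 428.9, 441.6 and 448.97 CPM (0.39 ± 0.11, adjusted p = 0.0056), and TTK, at 96.9, 102.3, 98.6 and 121.7 CPM against 130.8, 137.5, 142.98 and 148.04 CPM (0.42 ± 0.12, adjusted p = 0.00766). Neither was called with DMSO (adjusted p of 0.0358 and 0.13). The count of genes called fell from 21 to 11 without untreated WT replicate 1 and to 13 without untreated PARP1-KO replicate 3 or 4, and NUSAP1 and TTK were not among the called genes in these fits.

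The genes lower in the PARP1-KO clone and the genes lower after Tpc in WT cells overlapped, in comparisons with no library in common. Of the 21 genes not noted that were called lower after Tpc in WT cells, 17 (81.0%) were also called lower in PARP1-KO cells with DMSO, which is 85% of the 20 called there. Among the 28878 tested genes outside the set, 28 of the 64 called lower after Tpc (43.75%) were called lower in PARP1-KO cells with DMSO. FAM83D, GTSE1, HMMR and UBE2C were called lower with Tpc but not in the clone, where their adjusted p ran from 0.0103 (GTSE1) to 0.165 (HMMR). Pearson's r between both sets of log2 fold changes over the 44 genes was 0.73 (rho 0.73), against 0.37 (rho 0.40) over the 12161 genes with a mean of at least 50 counts. Without the pair of libraries 15 of the 21 genes were shared (71.4%, and 93.75% of the 16 called in the clone), and 26 of the 64 outside the set (40.6%). Over all 44 genes, the noted ones included, r was then 0.67.

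Levels of the set can be set side by side across the 10 groups. On the log2(CPM + 0.5) scale the mean over the 44 genes was 6.75 to 6.82 in untreated WT libraries, 6.70 to 6.93 with DMSO, 6.56 to 6.62 with OL9-119, 5.99 to 6.02 with Tpc and 5.94 to 6.01 with the combination. In PARP1-KO cells it was 6.43 to 6.52 untreated, 6.28 to 6.47 with DMSO, 6.33 to 6.47 with OL9-119, 6.17 to 6.28 with Tpc and 6.17 to 6.56 with the combination. Untreated and DMSO libraries overlapped within each genotype, as did Tpc and combination libraries. Every Tpc library of PARP1-KO cells lay above every Tpc library of WT cells and below every untreated library of its own genotype.

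Most genes of the set varied together. The mean of each genotype was first subtracted from log2 CPM, so the values of r here leave out differences between genotypes. Over the 40 libraries the log2 CPM of AURKA had a Pearson's r of 0.950 with the mean of the other members. CCNB1 had 0.938 and BUB1 0.933, while CKAP2 had 0.018, BORA 0.204, PRC1 0.211 and HJURP 0.37. The noted KIF20A had 0.954, but it was marked for low values in treated WT libraries, so its high r follows in part from that choice. The mean also holds the noted genes. Of the exon bases of BORA, an activator of AURKA, 37.0% lie opposite DIS3. Among 12096 other genes with a mean of at least 50 counts, those closest to the mean of the set, again less the genotype means, were RACGAP1 (r = 0.887), TOP2A (0.881), GPHN (0.877), KPNA2 (0.875) and NCAPD2 (0.858) over the 40 libraries. The libraries fall into groups by treatment, so these values carry no test. Within the set, the log2 fold change after Tpc in WT cells had a Pearson's r of 0.42 with the log2 span of the gene (0.27 without the noted genes). Genes with CHR letters in the promoter had a median of -0.59 and those without a median of -0.69.

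Of 27 other G2/M genes, 8 were called lower and 0 higher after Tpc in WT cells, among them TOP2A, the topoisomerase that untangles chromosomes (-0.89 ± 0.11, adjusted p = 7.17e-08), HMGB2, a chromatin protein (-0.65 ± 0.10), PIMREG (-1.21 ± 0.18) and CKS2, a CDK-binding subunit (-0.83 ± 0.16). The median of the list was -0.43. With the combination 9 were lower and with OL9-119 alone 3. Of all genes in WT cells 0.304% were called lower after Tpc, 2% with the combination and 0.833% with OL9-119. In PARP1-KO cells no drug changed a gene of the list past the threshold. Between PARP1-KO and WT cells with DMSO 7 were lower and 1 was higher, beside 5.75% and 6.67% of all genes. TUBB4B (-0.99 ± 0.12), HMGB2 (-0.76 ± 0.10), PIMREG (-1.40 ± 0.18) and LBR (-0.60 ± 0.12) had the smallest p. The 4 genes stayed among those called when the pair of libraries was left out, with 7 lower and 0 higher. TOP2A did not pass the test (-0.05 ± 0.11, adjusted p = 0.806, and -0.08, adjusted p = 0.676, without the pair).

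Of 23 regulators of G2/M transcription and entry, 1 was called higher and 0 lower after Tpc in WT cells, beside 0.553% and 0.304% of all genes. GADD45A, a stress gene whose protein inhibits CDK1 with cyclin B, rose from 54.0 to 77.2 CPM in untreated libraries to 147 to 189 CPM (1.35 ± 0.14, adjusted p = 1.23e-10). CDKN1A (p21) was at 217 to 266 CPM and at 238 to 261 CPM (0.08 ± 0.10, adjusted p = 0.772). For the transcription factor FOXM1 the change was -0.34 ± 0.10 (adjusted p = 0.0506), for MYBL2 -0.08 ± 0.10 and for the CDK1-inhibiting kinase WEE1 0.07 ± 0.11. In PARP1-KO cells with DMSO 5 regulators were higher than in WT and 0 lower, beside 6.67% and 5.75% of all genes. Among genes with a mean of at least 50 counts 14.2% were called higher. GADD45A stood at 195 to 274 CPM against 46.6 to 85.9 CPM (1.73 ± 0.14, adjusted p = 5.08e-15), followed by CDC25A (0.96), RBL1 (0.70), CDKN1A (0.40) and MYBL2 (0.39). The counts of regulators were also 5 and 0 when the pair of libraries was left out. GADD45A was at 226 to 253 CPM with Tpc in PARP1-KO cells, near its untreated 189 to 227 CPM (0.22 ± 0.13, adjusted p = 0.867).

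Of 43 genes of G1/S and DNA replication, which peak earlier in the cycle, 6 were called higher and 0 lower after Tpc in WT cells, among them EXO1, a DNA-end nuclease (0.95 ± 0.12), the replication licensing regulators DTL (0.72 ± 0.13) and CDC6 (0.57 ± 0.11), and MCM4 of the replicative helicase (0.49 ± 0.10). With the combination 11 were higher and 0 lower. With OL9-119 alone in WT cells 3 were called lower and 0 higher, but the list as a whole hardly moved. Its median log2 fold change was -0.01, and 22 of 43 fold changes were negative. At an unadjusted p below 0.05 (edgeR), 7 genes were lower and 7 higher. Of all genes in WT cells 0.553% were called higher after Tpc and 2.07% with the combination, and 0.833% lower with OL9-119. After any drug in PARP1-KO cells 0 of the 43 were called. With DMSO 20 were higher and 2 lower in PARP1-KO than in WT cells, beside 6.67% and 5.75% of all genes. ATAD2 (1.55 ± 0.14), DSCC1 (1.20 ± 0.15), USP1 (1.02 ± 0.12) and EXO1 (0.84 ± 0.12) had the smallest p. These 4 were among the 15 higher genes, beside 2 lower, when the pair of libraries was left out. The mean log2 level of the 44 G2/M genes less that of the 43 G1/S genes was -0.01 to 0.08 in untreated WT libraries, -1.07 to -1.0 with Tpc in WT, -0.69 to -0.58 in untreated PARP1-KO libraries and -1.04 to -0.98 with Tpc in PARP1-KO. On this measure the Tpc libraries of both genotypes overlapped, and the untreated libraries did not. The pair of libraries that stood apart had -1.01 (DMSO replicate 3) and -0.62 (combination replicate 3), where the other libraries of their groups had -0.66 to -0.61 and -0.98 to -0.92. Combination replicate 3 thus lay within the range of the other DMSO libraries. DMSO replicate 3 lay just below the range of the other combination libraries. The cause of this crossed pattern was not tested.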

How the data were processed

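RNA sequencing was done on 40 libraries of WT and PARP1-KO HEK293A cells. The authors prepared poly(A) directional libraries, aligned 100-bp paired-end reads to hg38 with STAR 2.7.8 (GeneCounts) and deposited raw gene counts, neither normalized nor pooled (FastQC 0.11.9 and Picard 2.26.6 are also named in the submitters' processing notes). The strand column kept is not given in the sources used here, so overlapping and antisense genes are uncertain. All 40 columns matched samples by name, and 0 columns belonged to other samples. Total counts ranged from 3455043 to 20379777, which makes counting error small for most of the 44 genes and limits PRC1 and PIF1.

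The 28922 genes whose counts over the 40 libraries came to 10 or more were analysed. Normalization was by TMM and testing by edgeR 4.0.16 (quasi-likelihood, R 4.3.3), with 1 term per group over all 40 libraries, Benjamini-Hochberg adjustment over all genes tested and a threshold of 0.01. Drug groups were compared with untreated cells, as in the study's figures. The standard error was the log2 fold change over the square root of F. Symbols and positions came from GENCODE 44. Means over lists used log2(CPM + 0.5), and r with the set used the same log2 CPM less its mean in each genotype.

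The 44 genes, the related lists, the tests and the alternatives were chosen with earlier results of these data known. All 44 genes may be named. Library values were given for the 4 noted genes, for the 3 lowest and 3 highest fold changes among genes called in WT Tpc, OL9-119 and combination comparisons and in PARP1-KO against WT with DMSO, and for the lowest adjusted p in each PARP1-KO drug comparison. Values of AURKA, CDC20, CDK1, HMMR, ARL6IP1, CKAP2, NUSAP1 and TTK were added after they were seen. Non-members were limited to the 4 genes of lowest p in each list, 5 regulators and the 5 genes closest to the set.

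Alternatives were DESeq2 1.42.0, RLE normalization, no filter or filterByExpr, length and GC offsets, DMSO as comparator, fewer libraries in the fit, the replicate number or library name prefix as a term, and each library left out. Leaving out the pair of PARP1-KO libraries that stood apart was added after seeing the data. The procedure was tested on simulated data.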

Additional observations from a re-analysis of the deposited data

Results flagged for a closer look

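In groups of 4 libraries, 15 values of 170 groups tested lay further from the other 3 than Dixon's 95% critical value allows, where chance gives about 1 in 20 (8.5). KIF20A stood at 84.3 CPM in PARP1-KO DMSO replicate 3, with 109 to 110.7 CPM in the other libraries, and CCNB1 at 153.5 CPM in PARP1-KO combination replicate 3, with 111.1 to 116.7 CPM in the others. Those are the libraries that stood apart over the whole set.

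The OL9-119 library of WT replicate 2 was the highest of its group for PIF1 (15.2 CPM), PTTG1 (131.6 CPM), CCNB1 (253.6 CPM) and TPX2 (489.4 CPM). WT Tpc replicate 2 was the highest for PTTG1 (148 CPM) and TACC3 (115.001 CPM), and untreated WT replicate 2 for KIF2C (183.8 CPM) and CDC25B (245.9 CPM). CCNB1 was high in untreated WT replicate 1 (374.9 CPM) and TPX2 in WT combination replicate 1 (441.8 CPM). Untreated PARP1-KO replicate 1 was the lowest for CDC25B (117.3 CPM) and TACC3 (94.1 CPM). The mean over the 44 genes in WT Tpc replicate 4 was 5.99 on the log2(CPM + 0.5) scale, apart from 6.01 to 6.02 in the others because those agree closely.

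The responses that differed between genotypes past an adjusted p of 0.01 (edgeR) were, for Tpc, those of CDC20 (0.98), ARL6IP1 (1.05) and HMMR (1.05), and for the combination those of CCNB1 (0.79), TACC3 (0.89), CCNB2 (1.03), CDC20 (1.08), UBE2C (1.09) and AURKA (1.11), all as log2 fold change in PARP1-KO less that in WT. The Tpc dose also differed between the genotypes.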

How the results depend on the processing

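Counts of the 44 genes called, which here include the noted genes as a description, moved by more than 1.5 times as follows. After Tpc in WT cells 24 became 37 with length and GC offsets. After OL9-119 in WT cells 3 became 5 without a filter or with the offsets and 1 with only the 8 libraries compared. After Tpc in PARP1-KO cells 0 became 1 without a filter or with the offsets, 5 with only the libraries compared and 3 with only the 20 libraries of the genotype, and after the combination 0 became 2 with only the libraries compared. The Tpc response counted 7 with DMSO as comparator, 7 with the offsets and 8 with DESeq2 in place of 4, and the combination response 14 with each of these in place of 8, and 4 without the pair of PARP1-KO libraries that stood apart. Over the 40 genes not noted WT Tpc went from 21 to 33 with the offsets, and leaving out 1 library gave 19 or 20 there, 22 to 26 for the WT combination, 0 to 2 for the Tpc response and 2 to 8 for the combination response. In PARP1-KO against WT with DMSO 23 lower and 0 higher became 24 and 1 with DESeq2, and untreated the 2 higher became 0 without a filter or with only the libraries compared. The cause was not tested. Leaving out 1 library at a time gave 22 to 24 genes for WT Tpc, 1 to 5 for WT OL9-119, 26 to 30 for the WT combination, 11 to 18 for PARP1-KO against WT untreated, 18 to 23 with DMSO, 1 to 3 for the Tpc response, 4 to 10 for the combination response, and 0 elsewhere. With the replicate number as a block the counts were 24, 3 and 30 for WT Tpc, OL9-119 and combination, 20 and 23 for PARP1-KO against WT untreated and with DMSO, 4 and 8 for the responses, and 0 elsewhere. Same-numbered libraries deviated together hardly at all (mean r of 0.036 in WT, 0.059 in PARP1-KO and -0.007 between them), so the numbers were not taken as pairs. Of 1118 alternatives to 62 results of single genes, 986 kept their call, 129 lost it, 3 moved in value and 0 turned sign. Depth limits PIF1 and PRC1.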
